A study of Mus musculus with 9 samples.

Results

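The genes described here are those that build cholesterol and fatty acids, together with the sterol regulatory element-binding proteins (SREBPs) and partners that control them. A list of 28 such genes was read by symbol from a table of 18423 genes measured in mouse stomach glands. 27 of the 28 had a row under their symbol, and Hmgcs1, a synthase early in the mevalonate pathway, is not analysed here. All 27 passed the filter on low values, which kept genes with at least 1 FPKM (sequenced fragments of a gene divided by its transcript length in kilobases and by the depth of the library) in at least 3 of the 9 libraries. That filter left 11209 genes in the tests.

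Poly(A) RNA came from glands scraped from the stomach corpus, taken where tumours had formed or from the matching region of normal stomachs, and there were 3 libraries in each of 3 genotypes. WT glands are from mice for which the labels name no transgene. Ctrl mice carried Atp4bCre; Rosa26NICD, in which a Cre recombinase under the promoter of the parietal cell gene Atp4b acts on a Rosa26 transgene for the Notch intracellular domain, the active form of the receptor. Arid1a_Het mice carried the same pair of transgenes and Arid1aflox/+, a single loxP-flanked copy of the chromatin remodelling gene Arid1a, so that Ctrl differs from WT by both transgenes and Arid1a_Het differs from Ctrl by that copy. The labels give no age, and they do not state whether replicate libraries are from separate litters or days, so each p-value reflects the spread among the libraries at hand.

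Cholesterol is made from acetyl-CoA through mevalonate and farnesyl diphosphate to squalene and lanosterol, and then through a series of demethylations and double bond shifts. Fatty acids are made from the same acetyl-CoA, which is carboxylated, joined into palmitate, and then elongated and desaturated. SREBPs are held in the endoplasmic reticulum by INSIG proteins and the escort protein SCAP when sterols are plentiful, and are cut and released to the nucleus when sterols are scarce. SREBP-2 acts mainly on sterol genes and SREBP-1c mainly on fatty acid genes, so members of both pathways often vary together. In the stomach corpus, acid-secreting parietal cells, enzyme-secreting chief cells and mucous cells share the gland.

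Promoters of 4 members are shown. Their genes had separated groups described below (Cyp51, Sc5d and Insig1) or encode the regulator itself (Srebf2). Tm7sf2, which also had separated groups, is not shown. The 4 promoters are RefSeq sequences of build GRCm38.p6, read 5′ to 3′ on the gene's strand and trimmed to bases outside annotated exons. Capitals mark 3 motifs on either strand: the core of the sterol regulatory element, the box bound by NF-Y, and the GC box bound by Sp1. Cyp51 encodes lanosterol 14-demethylase and its window is chr5:4104747-4104947 on the minus strand. Sc5d encodes the lathosterol oxidase that adds the second double bond of the ring, with a window at chr9:42264301-42264550 on the minus strand. Insig1, whose protein holds SREBPs back, has its window at chr5:28071162-28071362 on the plus strand. Srebf2 encodes SREBP-2 and its window is chr15:82147019-82147180 on the plus strand.
Cyp51: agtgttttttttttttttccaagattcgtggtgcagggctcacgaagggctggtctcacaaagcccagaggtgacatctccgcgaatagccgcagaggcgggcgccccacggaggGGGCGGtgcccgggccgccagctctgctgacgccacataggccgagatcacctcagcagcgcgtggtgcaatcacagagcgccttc
Sc5d: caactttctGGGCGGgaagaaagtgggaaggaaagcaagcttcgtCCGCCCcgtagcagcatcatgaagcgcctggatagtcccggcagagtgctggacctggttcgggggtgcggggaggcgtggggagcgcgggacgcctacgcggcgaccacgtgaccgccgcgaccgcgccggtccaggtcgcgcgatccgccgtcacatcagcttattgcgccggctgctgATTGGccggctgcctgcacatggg
Insig1: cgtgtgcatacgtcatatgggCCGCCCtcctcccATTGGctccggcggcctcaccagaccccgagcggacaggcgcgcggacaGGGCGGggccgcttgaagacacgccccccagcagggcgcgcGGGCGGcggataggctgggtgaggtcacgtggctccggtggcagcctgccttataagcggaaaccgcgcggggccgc
Srebf2: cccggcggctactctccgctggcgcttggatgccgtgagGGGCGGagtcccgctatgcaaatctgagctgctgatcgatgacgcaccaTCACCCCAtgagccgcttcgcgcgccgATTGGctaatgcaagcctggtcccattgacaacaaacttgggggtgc
The windows held 1 GC box in Cyp51, 2 GC boxes and 1 NF-Y box in Sc5d, 3 GC boxes and 1 NF-Y box in Insig1, and 1 of each motif in Srebf2. Of the 28 listed genes, 22 had RefSeq promoters, 27 in all, and the motifs were searched in the first 250 bases of each untrimmed promoter sequence. The core TCACCCCA was found in 2 of these 27 promoters (7.41%), those of Hmgcs1 and Srebf2, and in 1.34% of 32851 mouse promoters. The NF-Y box CCAAT was found in 19 (70.4%) against 33.8% of all promoters. The GC box GGGCGG was found in 20 (74.1%) against 32.7%. These matches describe letters in a window and are not evidence of binding.

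The libraries held 22651385 to 29478481 reads, recovered from the steps of the FPKM values. Arid1a itself was at 8.94, 5.90 and 6.96 FPKM in Arid1a_Het, below the 13.3 to 16.2 FPKM of Ctrl, while WT ran from 7.79 to 13.5 FPKM and overlapped Arid1a_Het. Gland markers were present in all libraries. Ctrl 1 and Arid1a_Het 3 stood apart in exocrine pancreas markers, whose summed level was 2958 and 1164 FPKM there and at most 6.63 FPKM in the other 7 libraries. Of the 6 adipocyte markers, Adipoq, Plin1, Lep and Retn were below 1 FPKM in every library, while Fabp4, the highest, ran from 2.36 to 11.2 FPKM. The 6 summed to 9.37 FPKM in WT 2 and 11.4 in Arid1a_Het 2, and to 2.36 to 6.32 FPKM elsewhere. Gapdh, which has many near-identical pseudogenes, was listed at 0.0919 to 0.850 FPKM, so the levels of members with close copies (Acat2, Fdps and Idi1) are uncertain.

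None of the 27 members passed the test in any comparison of genotypes. On deposited values the levels of all but Tm7sf2 varied more within genotypes than between them, as did those of most tested genes. The median share of variance between genotypes was 18.9% for members and 42.3% for all tested genes. Across the 9 libraries the highest median level was that of Scd2, a stearoyl-CoA desaturase, at 81.3 FPKM, followed by Cyp51 at 62.9 and Srebf2 at 59.4 FPKM. The lowest were Idi1, which isomerises isopentenyl diphosphate, at 0.991 FPKM, and Acaca, the acetyl-CoA carboxylase of fatty acid synthesis, at 1.01 FPKM. Idi1 ran from 0.650 to 1.41 FPKM and rested on 60 to 113 reads a library and Acaca on 303 to 682. In the order of median levels the ranges over libraries of neighbouring genes overlapped, apart from a gap between Acaca (0.657 to 1.68 FPKM) and the next gene above it, Scd1 (1.98 to 22.0 FPKM).

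**Figure D1:**
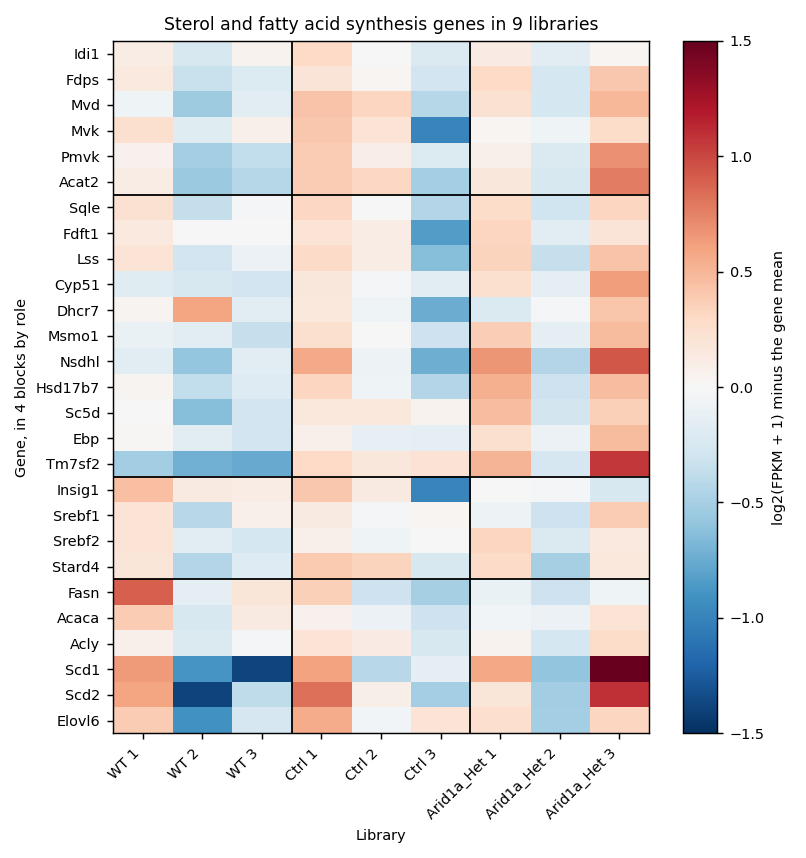
Level of each of 27 genes (rows, in 4 blocks by role: mevalonate and farnesyl steps, sterol steps, regulators and sterol transport, fatty acid synthesis) in 9 libraries (columns), as log2(FPKM + 1) minus the mean of the gene, with red above and blue below the mean. Ctrl 1 is the highest Ctrl library in 27 of 27 rows, and Arid1a_Het 2 is the lowest of its genotype in 25.

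Between Ctrl and WT, 0 of 27 members were called higher and 0 lower by limma at a Benjamini-Hochberg adjusted p under 0.05, where 7.01% of all tested genes were called higher and 3.04% lower. At an unadjusted p under 0.05, where the share of all genes was not counted, limma passed 1 member, Tm7sf2. With limma voom on the recovered reads 0 were called. The median member differed by 0.11 on the log2(FPKM + 1) scale, and the median of all tested genes by 0.24, so the members' median was -0.13 relative to it. Median-ratio scaling took the shift of all genes to 0.01 and their calls from 786 higher and 341 lower to 618 in each direction. The 95% interval of the difference held 0 for 26 of the 27 members, and the widest ran from -0.83 to 1.95, for Scd1.

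Tm7sf2 encodes a sterol C14-reductase that acts after the demethylation by Cyp51. Its level was 4.84, 4.08 and 3.94 FPKM in WT, 9.30, 8.39 and 8.75 in Ctrl, and 10.9, 6.05 and 16.4 in Arid1a_Het. Every library of either transgenic genotype lay above every WT library, and the Arid1a_Het libraries spanned the Ctrl ones. The means were 4.29 ± 0.487 FPKM in WT, 8.81 ± 0.462 in Ctrl and 11.1 ± 5.18 in Arid1a_Het (SD, n = 3). The fitted difference of Ctrl from WT was 0.90 on the log2 scale (SE 0.28, interval 0.26 to 1.53), with an adjusted p of 0.0720 by limma. With the replicate number as a block over all 9 libraries, a pairing that the labels do not state, the limma adjusted p was 0.0411. It was 0.0147 without Arid1a_Het 2, 0.0285 without Arid1a_Het 3 and 0.0122 with WT and Ctrl alone, and over all 18 alternatives it ran from 0.0122 to 0.181. The gene lies at chr19:6062821-6068373 on the minus strand of GRCm38, and 12.1% of its exonic bases are shared with Vps51 on the same strand, so reads there cannot be assigned with certainty. Vps51 was at 6.42 to 8.62 FPKM in WT and 8.05 to 9.59 in Ctrl, ranges that overlap.

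Among members of the early steps, Mvk, mevalonate kinase, was at 19.6, 14.3 and 17.4 FPKM in WT, 22.0, 19.0 and 7.76 in Ctrl, and 16.7, 15.7 and 20.1 in Arid1a_Het. Its lowest value in the study was Ctrl 3 and its highest Ctrl 1. Pmvk, the phosphomevalonate kinase that follows, was at 20.4, 13.4 and 14.9 FPKM in WT, 25.7, 21 and 16.8 in Ctrl, and 20.7, 16.7 and 32.1 in Arid1a_Het, and all pairs of genotypes overlapped. Its difference of Ctrl from WT was 0.36 (SE 0.26, limma adjusted p = 0.333). Acat2, the thiolase that joins acetyl-CoA units, ran from 10.7 to 28.4 FPKM over all libraries, and Mvd, the decarboxylase that ends the mevalonate steps, from 21.4 to 45. Fdps, farnesyl diphosphate synthase, ran from 17.4 to 29.9 FPKM and shares 26.7% of its exonic bases with the gene model Gm43738 on the same strand. These genes and Idi1 overlapped between Ctrl and WT in the same way. The median difference of the 6 members was 0.23, against 0.24 for all tested genes.

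Of the 11 members that act from squalene synthase onwards, 3 had Ctrl libraries all above WT, namely Tm7sf2, Cyp51 and Sc5d. No other member had separated groups in this comparison: 3 of 27 lay without overlap above WT and 0 below, where 33.5% and 10.2% of all tested genes did. Cyp51 was at 61.5, 58.8 and 57.1 FPKM in WT, 78.6, 68.8 and 61.8 in Ctrl, and 82.2, 62.9 and 108 in Arid1a_Het. The gap between the highest WT library and the lowest Ctrl library was small beside the spread within Ctrl. Sc5d was at 49.0, 31.2 and 39.9 FPKM in WT, 54.9, 54.6 and 50.9 in Ctrl, and 67.9, 40.4 and 63.2 in Arid1a_Het. Its Ctrl libraries were close together, and Arid1a_Het 2 fell among the WT libraries. The difference of Sc5d between Ctrl and WT was 0.43 (SE 0.22, interval -0.07 to 0.93), with a limma adjusted p of 0.203.

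Ebp, the sterol isomerase, and Msmo1, the C4-methyl oxidase, had narrower spreads than most members. Ebp was at 33.0, 29.1 and 26.5 FPKM in WT, 34.3, 29.8 and 29.6 in Ctrl, and 38.7, 30.5 and 45.7 in Arid1a_Het. Msmo1 was at 28, 26.6 and 23.5 FPKM in WT, 35.8, 30.1 and 24.0 in Ctrl, and 39.2, 27.2 and 42.1 in Arid1a_Het. In both genes Arid1a_Het 1 and Arid1a_Het 3 exceeded every other library, while Arid1a_Het 2 fell within the range of Ctrl and WT.

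Nsdhl, the dehydrogenase that works beside Msmo1, reached 34.1 and 41.4 FPKM in Arid1a_Het 1 and 3, fell to 15.4 in Arid1a_Het 2, and ran from 12.4 to 32.0 in Ctrl and from 13.8 to 18.8 in WT. Dhcr7, which makes cholesterol in the final reduction of one branch, went another way, with its highest level in WT 2 at 14.8 FPKM and its lowest in Ctrl 3 at 5.23. Fdft1, squalene synthase, stood at 19.0 FPKM in Ctrl 3 and between 31.0 and 43.7 in every other library. It shares 18.3% of its exonic bases with Ctsb on the opposite strand, and how strand entered the counting is not given in the sources used here. Sqle, squalene epoxidase, ran from 27 to 46.6 FPKM over the 9 libraries, Lss, lanosterol synthase, from 4.95 to 11.4, and Hsd17b7, a 3-keto-reductase, from 4.95 to 10.7. All 3 overlapped between every pair of genotypes.

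**Figure D2:**
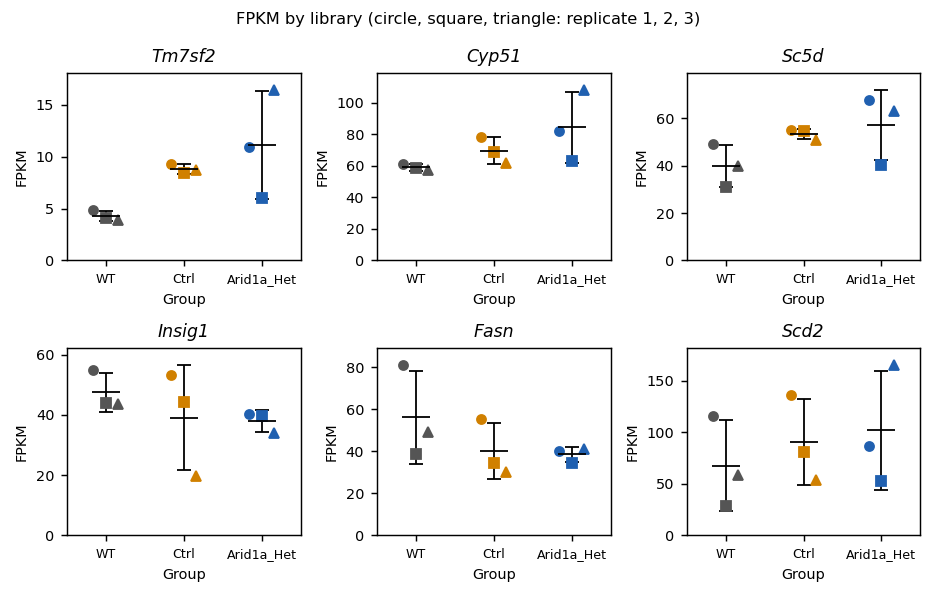
FPKM (vertical axes, from 0) of 6 members in WT, Ctrl and Arid1a_Het, with 1 point per library and the mean and SD of 3 libraries as a bar with whiskers. Tm7sf2 is at 3.94 to 4.84 FPKM in WT and at 8.39 to 9.30 in Ctrl, whereas Scd2 spans 28.7 to 116 FPKM within WT alone.

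The regulators showed no separation between Ctrl and WT. Srebf1 was at 29.1, 18.5 and 26.5 FPKM in WT, 27.7, 24.5 and 25.7 in Ctrl, and 23.8, 20.0 and 32.9 in Arid1a_Het. Srebf2 was at 68.9, 53.2 and 49.6 FPKM in WT, 63.1, 57.1 and 59.4 in Ctrl, and 74.8, 51.2 and 66.1 in Arid1a_Het. Both genes had their Ctrl values inside the WT range, and the sign of their small differences between Ctrl and WT (0.09 and 0.08) turned to -0.17 and -0.19 under median-ratio scaling. The deposited values do not separate the Srebf1 transcripts for SREBP-1a and SREBP-1c.

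Insig1 was at 55.0, 44.1 and 43.6 FPKM in WT, 53.4, 44.2 and 19.7 in Ctrl, and 40.4, 39.6 and 33.9 in Arid1a_Het. The low Ctrl 3 value set its difference of Ctrl from WT, which was -0.38 (SE 0.31, limma adjusted p = 0.390) with that library and 0.04 without it. All 3 Arid1a_Het libraries lay below all WT libraries. Stard4, a carrier of cholesterol between membranes, ran from 14.1 to 22.2 FPKM in WT, 16.3 to 25.9 in Ctrl and 13.4 to 24.0 in Arid1a_Het.

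The 6 fatty acid synthesis members had a median SD within genotypes of 0.45 on the log2(FPKM + 1) scale, against 0.37 over all members. Scd1 and Scd2 were the widest of the members and Acly among the narrowest. Acaca had an SD of 0.23, but this scale compresses a gene at 0.657 to 1.68 FPKM, and its highest library was 2.57 times its lowest. Fasn, the synthase that makes palmitate, was at 81.0, 38.7 and 49.0 FPKM in WT, 55.2, 34.5 and 30.2 in Ctrl, and 40.2, 34.4 and 41.2 in Arid1a_Het. WT 1 was far above the rest, and the remaining WT libraries overlapped both other genotypes. Its difference of Ctrl from WT was -0.46 (SE 0.29, limma adjusted p = 0.276). Elovl6, which extends palmitate, was at 14.8, 5.49 and 9.19 FPKM in WT, 16.9, 10.8 and 13.0 in Ctrl, and 13.5, 7.53 and 14.2 in Arid1a_Het. The WT range held the values of 2 Ctrl libraries and of all 3 Arid1a_Het libraries. Its difference of Ctrl from WT was 0.50 (SE 0.34, limma adjusted p = 0.306), with the opposite sign to Fasn.

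Scd1 and Scd2 put the first double bond into saturated acyl chains. Scd1 was at 11, 3.20 and 1.98 FPKM in WT, 10.8, 4.78 and 6.04 in Ctrl, and 10.6, 4.15 and 22.0 in Arid1a_Het. Scd2 was at 116, 28.7 and 58.3 FPKM in WT, 136, 81.3 and 53.6 in Ctrl, and 87.1, 53.1 and 165 in Arid1a_Het. The highest library was 11.1 times the lowest for Scd1 and 5.74 times for Scd2, and every genotype held both high and low libraries. Acly, which cleaves citrate to supply acetyl-CoA, varied least by this ratio, 1.45 times, from 38.6 to 56.1 FPKM. Acaca overlapped between all genotypes. Under quantile normalization it was the 1 member called lower in Ctrl than in WT, beside 703 of 11209 tested genes.

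Between Arid1a_Het and Ctrl, which differ by the loxP-flanked Arid1a copy, limma called 0 of 27 members in either direction, and 0 reached an unadjusted p under 0.05. Limma voom also called 0. Of all tested genes, 0% were called higher and 0.00892% lower. No member had separated groups, where 2.41% of all genes lay without overlap above Ctrl and 22.2% below. The interval held 0 for all 27 members. The members with the smallest p were Ebp with a difference of 0.27 (SE 0.17, adjusted p = 0.530 by limma), Msmo1 with 0.26, Cyp51 with 0.24, Nsdhl with 0.47 and Fdft1 with 0.29, the last of which turned to -0.04 without Ctrl 3. The median member differed by 0.15 and the median of all tested genes by -0.16, and this gap of 0.31 ran from 0.13 to 0.48 as each library was left out. For the 11 sterol members the median was 0.26, for the 6 mevalonate and farnesyl members 0.13, for the 6 fatty acid members 0.06 and for the 4 regulators and transport genes 0.01. Insig1 differed by 0.07, or by -0.35 without Ctrl 3.

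Between Arid1a_Het and WT, which differ by the transgenes and the Arid1a copy together, 0 of 27 members were called in either direction by limma, and limma voom called 0. The background at an adjusted p under 0.05 was 2.06% of all genes higher and 0.687% lower. At an unadjusted p under 0.05, where the share of all genes was not counted, limma passed 2 members, Tm7sf2 and Cyp51. This comparison shares its WT libraries with the first one and its Arid1a_Het libraries with the second. Tm7sf2 and Cyp51 lay without overlap above WT and Insig1 below, 2 and 1 of 27, where 10.6% and 8.57% of all genes did. Tm7sf2 differed by 1.11 (SE 0.28, interval 0.47 to 1.74, limma adjusted p = 0.0761). Without Arid1a_Het 2 its difference was 1.45, with a limma adjusted p of 0.00463, and over the 18 alternatives the adjusted p ran from 0.00463 to 0.290. Cyp51 differed by 0.47 (SE 0.19, interval 0.04 to 0.91), with a limma adjusted p of 0.248. Sc5d differed by 0.49, Msmo1 by 0.44 and Ebp by 0.35, with limma adjusted p of 0.304, 0.311 and 0.338. The median member differed by 0.28 and the median gene by 0.02.

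**Figure D3:**
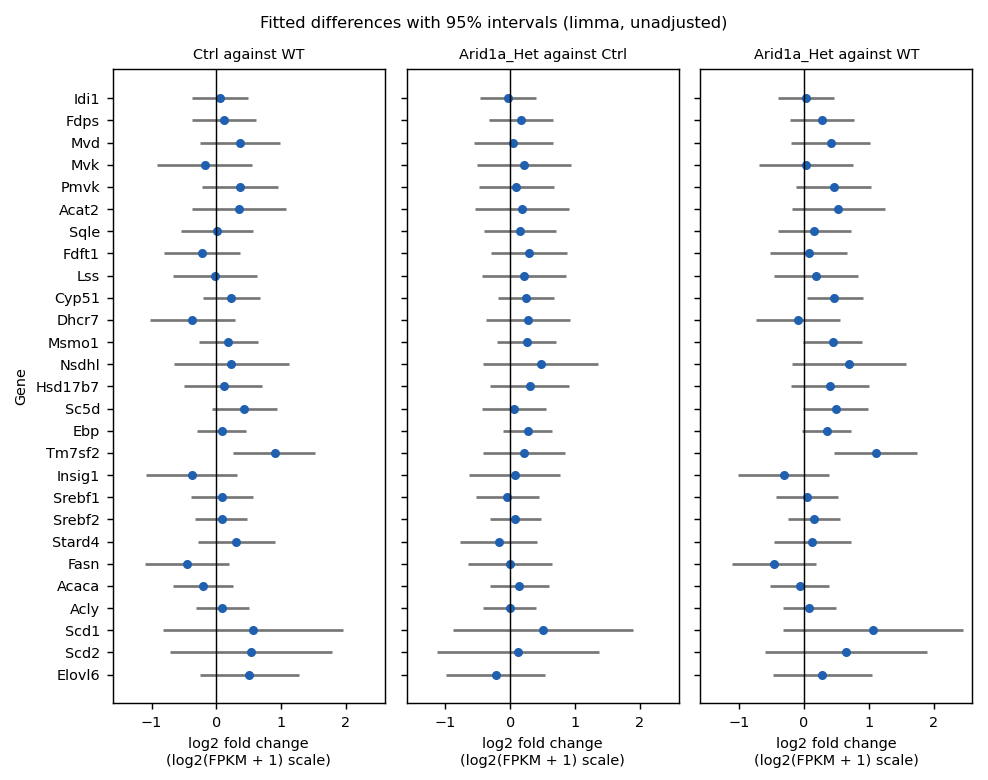
Fitted difference of each of 27 genes (rows) on the log2(FPKM + 1) scale, with its unadjusted 95% interval, in 3 panels: Ctrl against WT (left), Arid1a_Het against Ctrl (middle) and Arid1a_Het against WT (right). The interval holds 0 for 26, 27 and 25 genes, and Tm7sf2 has the largest differences from WT, 0.90 and 1.11.

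Within a genotype the members moved together from library to library. Ctrl 1 held the highest Ctrl level of all 27 members, where it did so for 29.3% of all tested genes. Ctrl 3 held the lowest level of 22 members, against 45.9% of all genes. In Arid1a_Het, replicate 3 was highest for 20 members (42.6% of all genes) and replicate 2 lowest for 25 (61.9%). In WT, replicate 1 was highest for 25 members (44.9%). The lowest level was in replicate 2 for 18 members, and this share of 66.7% is near the 69.0% of all genes. Replicate 3 was lowest for 9 members (11.8%). These libraries were not chosen by the labels, so the counts are descriptions without a test.

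Part of the order followed the scale of whole libraries. After median-ratio scaling, Ctrl 1 was highest for 24 members (20.5% of all genes), Ctrl 3 lowest for 21 (36.3%), Arid1a_Het 2 lowest for 22 (36.9%) and Arid1a_Het 3 highest for 19 (31.5%). WT 1 was then highest for 17 (33.6%). The low WT library changed, with replicate 3 lowest for 21 members (26.9%) and replicate 2 for 6 (40.7%). The exceptions in Arid1a_Het 3 included Insig1, whose lowest level of that genotype was there on both scales, against the run of the synthesis genes.

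**Figure D4:**
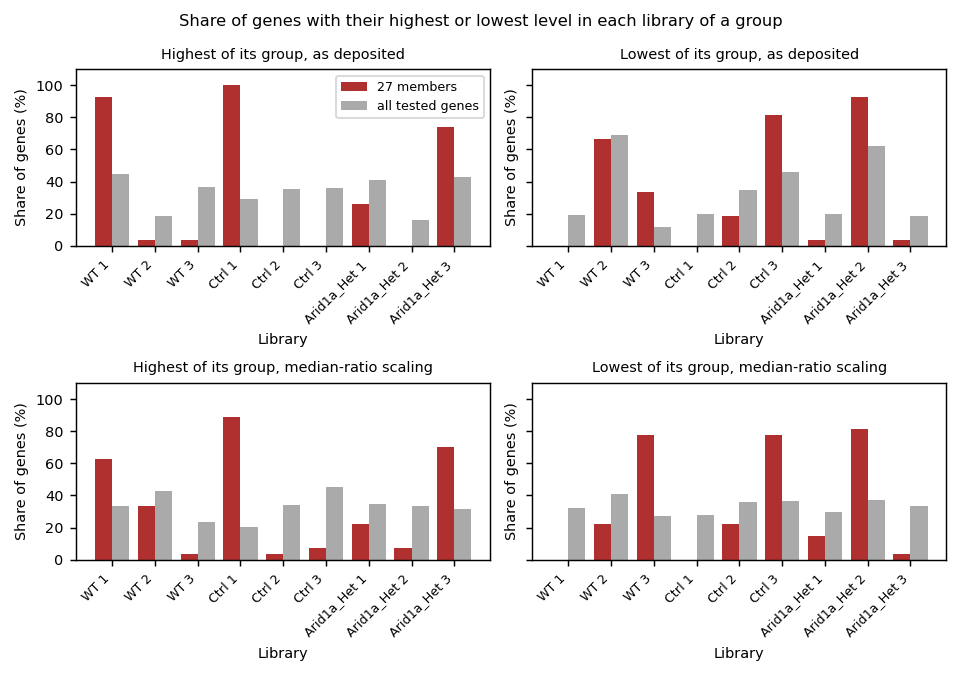
Share of genes (%, vertical axes) that have their highest (left) or lowest (right) level of the genotype in each library, for 27 members (red) and all 11209 tested genes (grey), on deposited values (top) and after median-ratio scaling (bottom). Ctrl 1 is highest for 27 members on deposited values and for 24 after scaling.

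A mean of the 17 standardised mevalonate and sterol members placed Arid1a_Het 3 (1.32), Ctrl 1 (0.81) and Arid1a_Het 1 (0.77) at the top and Ctrl 3 (-1.12), WT 2 (-0.86), Arid1a_Het 2 (-0.61) and WT 3 (-0.57) at the bottom, with Ctrl 2 at 0.15 and WT 1 at 0.11. Every genotype had libraries on both sides of 0. The libraries with pancreas marker sums of 2958 and 1164 FPKM, Ctrl 1 and Arid1a_Het 3, were the highest in this mean, while Arid1a_Het 1, next in order, had a pancreas sum of 0.776 FPKM. Chief cell markers summed to 82542 FPKM in WT 2 and 82806 in Arid1a_Het 2, and to 5830 to 36475 FPKM elsewhere. Markers of cycling cells were lowest in the same libraries, at 18.7 and 38.7 FPKM, but reached 103 FPKM in Ctrl 3, which had the lowest mean of all. The part of these cell markers in the order was not tested, and in bulk glands fewer cells of a type cannot be told apart from less RNA per cell.

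Over the 9 libraries, Pearson's r of single members with that mean, which includes them, was highest for Fdps, Nsdhl (each 0.97) and Hsd17b7 (0.96). It was lowest among all members for Fasn (0.33), Dhcr7 and Insig1 (each 0.36). Acly, a fatty acid gene outside the mean, reached 0.92 and Scd2 0.88, while Srebf2 reached 0.70 and Srebf1 0.62. After group means were removed, r between pairs of the 17 members had a median of 0.81 and was above 0 for 135 of 136 pairs, and between the 6 fatty acid members the median was 0.83. The points share library depth and scale, and no p is given. These r are from deposited values only and were not computed for other sets of genes, so they are not shown to be particular to the members. Among the 5 tested genes outside the list most like the mean were Rpl37rt (r = 0.96), Aldoc, an aldolase (0.94), Ppp2r1a, a scaffold subunit of phosphatase PP2A (0.94), and Mapre1, a microtubule end-binding protein (0.92). Aldoc ran from 1.72 FPKM in WT 2 to 5.21 in Arid1a_Het 3. Rpl37rt is a near-copy of a ribosomal protein gene, so its level is uncertain.

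The share of a member's variance on the log2 scale that lay between genotypes had a median of 18.9%, against 42.3% over all tested genes and 46.3% over the 73 tested genes of neighbouring pathways. With median-ratio scaling these became 37.5%, 44.4% and 51.5%, so the members' median stayed the lowest of the 3 by smaller distances. Tm7sf2 had the highest share of the members on deposited values, 69.7%, followed by Cyp51 at 48.3% and Ebp at 46.0%. Idi1 and Srebf1 had the lowest, 2.01% and 2.46%. The SD within genotypes had a median of 0.37 for members and 0.26 for all tested genes, and was largest for Scd1 at 0.92 and Scd2 at 0.83.

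The neighbouring genes were 86 further genes of sterol and fatty acid synthesis, SREBP control, sterol transport and glycerolipid synthesis, of which 82 had a row and 73 were tested. Between Ctrl and WT, 5 were called higher, among them Elovl5, Rnf145, Plin2 and Cidea, and 6 lower (Acacb, Scap, Hacd3, Gpam, Agpat2 and Cidec). These are 5 and 6 of 73, beside 7.01% of all tested genes called higher and 3.04% lower, so the count of higher calls is near the background. None of the 4 tested non-members of the mevalonate and sterol steps were among them. With the replicate block 11 were called higher and 9 lower, beside 1804 and 669 of 11209 tested genes. With median-ratio scaling 5 were called higher and 11 lower, beside 618 of all tested genes in each direction. Leaving out any of Ctrl 1, Ctrl 2, Ctrl 3, WT 2 or WT 3 left 3 called higher, and 1 or 2 called lower. Calls over all tested genes also fell then, from 786 higher and 341 lower to 209 to 314 higher and 42 to 99 lower.

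Elovl5, an elongase of polyunsaturated fatty acids, was at 3.83, 3.52 and 2.21 FPKM in WT, 16.2, 18.9 and 20.1 in Ctrl, and 15.8, 14.4 and 25.7 in Arid1a_Het. All libraries with the transgenes were far above WT. The difference was 2.23 for Ctrl (SE 0.24, limma adjusted p = 0.00172) and 2.21 for Arid1a_Het (SE 0.24, limma adjusted p = 0.00246), and both calls held in all 18 alternatives. Acacb, the carboxylase whose product at mitochondria restrains fatty acid oxidation, went down, with 26.9, 23.9 and 17.9 FPKM in WT, 4.54, 4.57 and 2.54 in Ctrl, and 7.24, 9.43 and 3.96 in Arid1a_Het. Its Ctrl difference of -2.30 (SE 0.30, limma adjusted p = 0.00358) held in all 18 alternatives. Its Arid1a_Het difference from WT was -1.65 (SE 0.30, limma adjusted p = 0.0237), and the call was lost in 8, including without Arid1a_Het 1, Arid1a_Het 3 or any WT library.

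In SREBP control, Rnf145, a ubiquitin ligase that targets SCAP, was at 1.37, 1.08 and 2.02 FPKM in WT, 6.91, 7.37 and 6.35 in Ctrl, and 2.81, 2.14 and 6.11 in Arid1a_Het. Arid1a_Het lay between the other genotypes without overlapping either. Rnf145 rose by 1.68 in Ctrl (SE 0.29, limma adjusted p = 0.0113), a call kept in all 18 alternatives, and the difference of Arid1a_Het from Ctrl, -0.84, had a limma adjusted p of 0.397. Scap, the escort protein of SREBPs, was at 28.5, 28.1 and 26.6 FPKM in WT, 19.2, 18.1 and 18.7 in Ctrl, and 25.0, 23.3 and 21.9 in Arid1a_Het. It fell by 0.54 in Ctrl (SE 0.12, limma adjusted p = 0.0240), and leaving out any 1 of the 6 libraries compared raised the adjusted p to between 0.0558 and 0.0781. Scap shares 13.2% of its exonic bases with a gene model on the opposite strand. Its difference of Arid1a_Het from Ctrl was 0.31, with a limma adjusted p of 0.404. Insig2, the second holder of SREBPs, was at 15.9 to 23.8 FPKM in WT and 20.7 to 24.1 in Ctrl, and was not called.

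**Figure D5:**
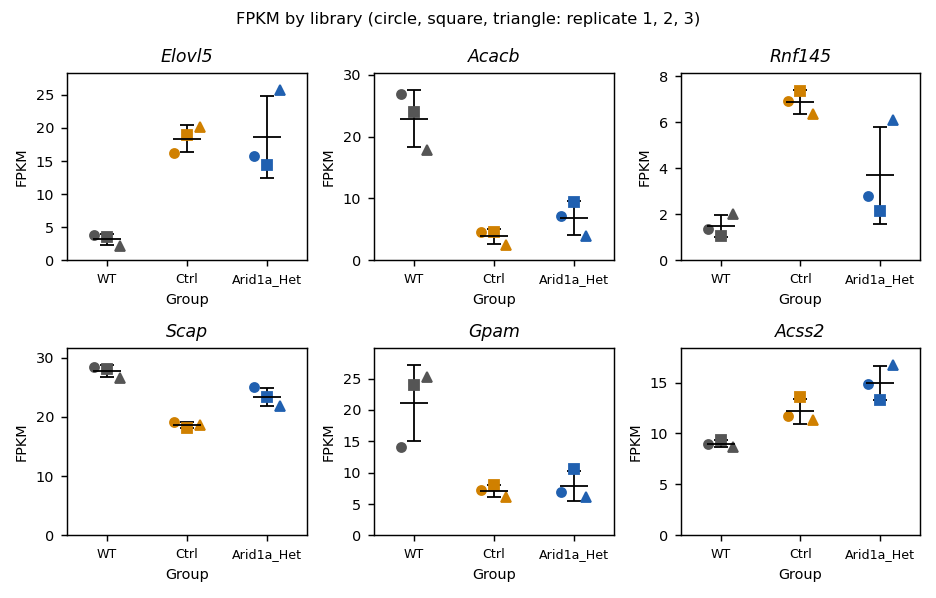
FPKM (vertical axes, from 0) of 6 neighbouring pathway genes that are not members, with 1 point per library and the mean and SD of 3 libraries as a bar with whiskers. Elovl5 is at 2.21 to 3.83 FPKM in WT and 14.4 or above in the other genotypes, and Acacb is at 17.9 FPKM or above in WT and at most 9.43 elsewhere.

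Among lipid droplet and glycerolipid genes, Cidea, a droplet fusion protein, rose from 0.592 to 0.999 FPKM in WT to 3.75 to 6.80 in Ctrl (difference 1.66, limma adjusted p = 0.0106), while its relative Cidec fell by 0.72. Cidea was called in all 17 alternatives that tested it. Plin2, a droplet coat protein, rose by 1.57, and the acyltransferases Gpam and Agpat2 fell by 1.41 and 0.70. Hacd3, a dehydratase of the elongation cycle, fell by 0.72. The calls of Cidec, Plin2, Gpam, Agpat2 and Hacd3 were lost on leaving out single libraries, for Gpam without Ctrl 3, WT 2 or WT 3, and for Plin2, Agpat2, Cidec and Hacd3 without any single Ctrl library among others.

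Between Arid1a_Het and Ctrl limma called 0 of the 73 genes, and voom called 0. An unadjusted p under 0.05 by limma was reached by 10 of them, and the share of all genes at that threshold was not counted. Between Arid1a_Het and WT, Elovl5 and Acss2 were called higher and Acacb and Gpam lower, 2 of 73 in each direction. Over all tested genes 2.06% were called higher and 0.687% lower, so the count of higher calls is near the background here too. Acss2, which makes acetyl-CoA from acetate, was at 8.95, 9.37 and 8.65 FPKM in WT, 11.7, 13.6 and 11.3 in Ctrl, and 14.9, 13.3 and 16.7 in Arid1a_Het. It rose by 0.67 in Arid1a_Het (SE 0.14, limma adjusted p = 0.0392), a call kept in 5 of 18 alternatives, and every omission of a library other than Arid1a_Het 2 lost it. Gpam fell by 1.30 in Arid1a_Het (limma adjusted p = 0.0320), a call lost in 12 of 18 alternatives, among them the omission of any library but Arid1a_Het 2 and WT 1.

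Levels of some cell type markers differed between Ctrl and WT beside these calls. In bulk glands such sums do not tell fewer cells of a type from less RNA per cell. Parietal markers summed to 4337 to 16472 FPKM in WT and 1322 to 2484 in Ctrl, and 9 of the 15 tested were called lower. Surface mucous markers summed to 70531 to 96308 FPKM in WT and 38216 to 46355 in Ctrl, with 3 of 7 called lower and Krt20 called higher. Enteroendocrine markers summed to 1083 to 4018 FPKM in WT and 69.5 to 1503 in Ctrl, and 3 of 6 (Chga, Sst and Ghrl) were called lower in Ctrl, as were Sst and Ghrl in Arid1a_Het against WT. Squamous markers summed to 46.2 to 363 FPKM in WT and 253 to 756 in Ctrl, and Ivl and Sprr1a were called higher. Cycling markers summed to 18.7 to 95.9 FPKM in WT and 96.2 to 105 in Ctrl, with 0 of 6 called. Chief cell markers summed to 12177 to 82542 FPKM in WT and 5830 to 19567 in Ctrl, with 0 of 6 called. Mucous neck markers summed to 5377 to 12025 FPKM in WT and 6950 to 18545 in Ctrl, with 0 of 5 called. In Arid1a_Het the parietal sum was 1696 to 6919 and the surface mucous sum 46033 to 81306 FPKM. The part of these markers in the differences of Elovl5, Acacb, Scap and the other called genes was not tested.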

How the data were processed

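Poly(A) RNA-seq of stomach corpus glands was deposited as 1 table of FPKM values for 18423 genes in 9 libraries. The authors made the FPKM values from stranded mRNA libraries, per the labels' protocols. STAR 2.4.2a and the builds GRCm38 and mm10 are named in the submitters' processing notes, and the counting tool and its strand setting are not given in the sources used here.

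Groups follow the genotype in the labels. Values were tested as deposited on log2(FPKM + 1), using limma 3.58.1 under R 4.3.3 (functions lmFit and eBayes, the latter with trend), all 9 libraries in 1 fit of 3 group means. Genes with at least 1 FPKM in at least 3 libraries were tested (11209), and p-values were adjusted by Benjamini-Hochberg over all of them at a threshold of 0.05. A fold change on this scale understates that of low genes. Intervals of 95% are unadjusted.

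Whole reads were recovered from the steps of the FPKM values. All 18423 genes came out whole within a tolerance of 0.01, and 97.0% were exact on simulated data. Totals were 22651385 to 29478481 reads, and the reads were used for depth and the limma voom alternative. The scripts were tested on simulated data.

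Replicate numbers are shared by the genotypes, though the labels do not say that they pair libraries. Deviations from the group means of same-numbered WT and Ctrl libraries correlated (0.207, 0.336 and 0.138), so the blocked value is given for this comparison where it changes a call. The block was fitted to all 9 libraries, and the other pairs of genotypes had negative values among them, so these correlations do not establish a pairing.

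The 28 members and all gene and marker lists were chosen with earlier results of these data known. Values are given for all members by name or range, for neighbouring pathway genes past the threshold plus Scap and Insig2, and for the 5 non-members most like the mean of the mevalonate and sterol members. Some genes that this rule names are not reported here. Gene positions and exon overlaps are from GENCODE M21 (GRCm38), and promoters from RefSeq (GRCm38.p6). Figures were drawn with matplotlib 3.10.9. Alternatives were a pseudocount of 0.1, no filter, a minimum of 5 FPKM, median-ratio scaling, quantile normalization, only the 2 groups compared, the replicate block, no libraries with pancreas markers, limma voom, and each library left out.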

Additional observations from a re-analysis of the deposited data

How the results depend on the processing

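Each result was recomputed under 18 alternatives, 9 of them leaving out 1 library. The members' medians relative to all tested genes were -0.13 for Ctrl against WT, 0.31 for Arid1a_Het against Ctrl and 0.25 for Arid1a_Het against WT. In all 18 they moved by less than 0.25, the SD of this median between replicates. That limit is too wide beside the medians to show that they were stable. As single libraries were left out they ran from -0.21 to 0.01, 0.13 to 0.48 and 0.14 to 0.38, in that order. The count of members called higher in Ctrl than in WT was 1 in place of 0 with the replicate block and with only the 2 groups compared. Of 11209 tested genes, 1804 and 1042 were called higher in these settings. With single libraries left out the count was 0 to 1, beside 209 to 1068 of all tested genes. Quantile normalization called 1 member lower, beside 703 of all tested genes. The count higher in Arid1a_Het than in WT was 1 with the replicate block and 0 to 1 with single libraries left out. Over all tested genes these counts were 445 and 78 to 532. Neighbouring pathway genes called higher in Ctrl than WT were 3 with no filter and 3 with a minimum of 5 FPKM. They were 11 with the replicate block and 3 to 7 with single libraries left out. Over all tested genes these counts were 563, 497, 1804 and 209 to 1068. Called lower were 11 with median-ratio scaling, 10 with quantile normalization and 1 to 8 with single libraries left out. The counts over all tested genes were 618, 703 and 42 to 405. Between Arid1a_Het and WT, 1 was called higher with no filter, median-ratio scaling, quantile normalization, only the 2 groups compared or no pancreas libraries. Over all tested genes the higher calls in these settings were 95, 291, 244, 89 and 97, in that order. The replicate block called 4 higher (445 of all genes), and leaving out single libraries 1 to 6 (78 to 532). Called lower there were 0 with no filter, 0 with only the 2 groups compared, 1 with no pancreas libraries and 0 to 2 with single libraries left out. The lower calls over all tested genes were 45, 16, 17 and 11 to 194. The causes were not tested. The replicate block changed the call of no member but Tm7sf2.

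Small differences changed sign, none of them called. For Srebf1, Ctrl against WT became -0.17 with median-ratio scaling, -0.08 with quantile normalization and -0.10 to 0.22 with single libraries left out. Arid1a_Het against Ctrl became 0.17, 0.06 and -0.24 to 0.11 in that order, and Arid1a_Het against WT became -0.03 with quantile normalization, -0.15 with no pancreas libraries and -0.15 to 0.20 with single libraries left out. For Srebf2, Ctrl against WT became -0.19 with median-ratio scaling, -0.02 with quantile normalization and -0.02 to 0.22 with single libraries left out, and Arid1a_Het against Ctrl ran from -0.04 to 0.23. With single libraries left out, Insig1 ran from -0.66 to 0.04 for Ctrl against WT and from -0.35 to 0.34 for Arid1a_Het against Ctrl, and Fdft1 from -0.04 to 0.48 for Arid1a_Het against Ctrl. With 3 libraries a group, the 95% interval for Ctrl against WT ran from -0.83 to 1.95 for Scd1, the member with the largest spread, and from -0.30 to 0.46 for Ebp, which had one of the smallest.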
